A study of Homo sapiens with 18 samples.

Results

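ER3 and T15-2 are sublines of the lung cancer line HCC827 described as resistant to erlotinib, a drug that blocks the kinase activity of EGFR. The response to the drug that remained common to both was read from their 12 arrays, out of 18 arrays in the series. These were all the arrays of the 2 sublines, 6 with erlotinib and 6 with DMSO, and each gene's average change was estimated with the cell line as a block. The direction in each subline was read beside it.

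The groups were ER3 with erlotinib, ER3 with DMSO, T15-2 with erlotinib and T15-2 with DMSO, each with 3 Illumina BeadChip arrays. HCC827 with erlotinib and HCC827 with DMSO, also 3 arrays each, served for comparison. Erlotinib was given at 1 µM for 12 h, and DMSO, its solvent, for the same time. All groups shared growth in serum-containing RPMI-1640 and overnight starvation before treatment, so the DMSO groups are starved cells too. HCC827 is an established human line of non-small cell lung cancer that carries an activating EGFR mutation. How the sublines were selected, whether each is 1 clone and what the starvation medium lacked are not given in the sources used here. Nothing in the labels states that samples of one group were grown separately, and the p-values therefore measure the spread between these samples alone, which may be technical.

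Between 15698 and 17461 probes lay above background on each of the 12 arrays (detection p under 0.05). The tests covered 11318 genes. The number of arrays limits the precision. Within groups the log2 signals correlated between 0.99 and 0.996 across genes. ER3 DMSO replicate 2 and T15-2 erlotinib replicate 3 were the extremes of component 1 of the spread within groups, which held 31.4% of it, and counts without both arrays stand beside the main ones. All 11 listed lung epithelial markers were measured, and 9 of them, EPCAM and the keratins among them, were above background on all 12 arrays. The leukocyte markers PTPRC, CD3D, MS4A1 and ITGAM, the fibroblast markers COL1A1, COL1A2, COL3A1, PDGFRB and THY1, and the endothelial markers CDH5, KDR and CLDN5 were not above background on any of the 12. Of these other cell types 8 markers were measured, and CD14, CD68, LUM and PECAM1 were above background on all 12 arrays. Of the 8, CD68 passed the test, at 0.20 higher with erlotinib on the log2 scale, and that call was lost in most fits without 1 array. Its other kept probes changed by 0.02 and -0.14 and did not pass. The part of such markers in the results was not tested.

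EGFR is a receptor tyrosine kinase that passes growth signals through the RAS, RAF, MEK and ERK kinases and through PI3 kinase and AKT. ERK activity drives transcription of immediate early genes such as EGR1 and FOSL1 and of cyclin D1, which opens the way to E2F-driven DNA replication genes. AKT keeps FOXO transcription factors out of the nucleus, and mTORC1 downstream of AKT promotes glycolysis, lipid synthesis and ribosome production. In EGFR-mutant lung cancer cells that remain sensitive, an EGFR inhibitor shuts these outputs down, and resistant cells are defined by growth in its presence.

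Erlotinib still changed the expression of many genes in the sublines, mostly by little. On average over ER3 and T15-2, 1443 of 11318 genes passed limma's test at an adjusted p below 0.05, which is 12.7% of the genes tested. Of these, 776 were higher with erlotinib (6.86% of genes tested) and 667 lower (5.89%). The median size of their change was 0.34 on the log2 scale, 72 changed by at least 1.5-fold and 8 (0.0707%) by at least 2-fold. All 1443 had the same sign in both sublines, which the test in part fixes, because a gene that moves in opposite ways has a small average and a large residual. A stricter set of 840 genes (7.42%) passed and also had erlotinib and DMSO arrays that did not overlap in either subline, 435 of them higher (3.84%) and 405 lower (3.58%). Without regard to the test, groups lay apart in ER3 for 20.2% of genes, in T15-2 for 28.8%, in both in the same direction for 8.65% and in both in opposite directions for 0.618%. Without the 2 arrays that stood apart, 2322 genes passed on average and 1909 met the stricter rule. Both counts are raised in part by that choice. The arrays were the extremes of the spread, and groups with fewer arrays overlap less readily. Fewer passed on average without T15-2 erlotinib replicate 1 (895), without T15-2 erlotinib replicate 2 (898), without T15-2 DMSO replicate 1 (913) and with the replicate number as a block (830). When arrays were scaled to a common median rather than quantile-normalized, the median change of all genes was 0.135 and not 0.009, and the split moved to 1827 higher and 119 lower. Counts of higher against lower genes therefore hold relative to quantile normalization.

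**Figure D1:**
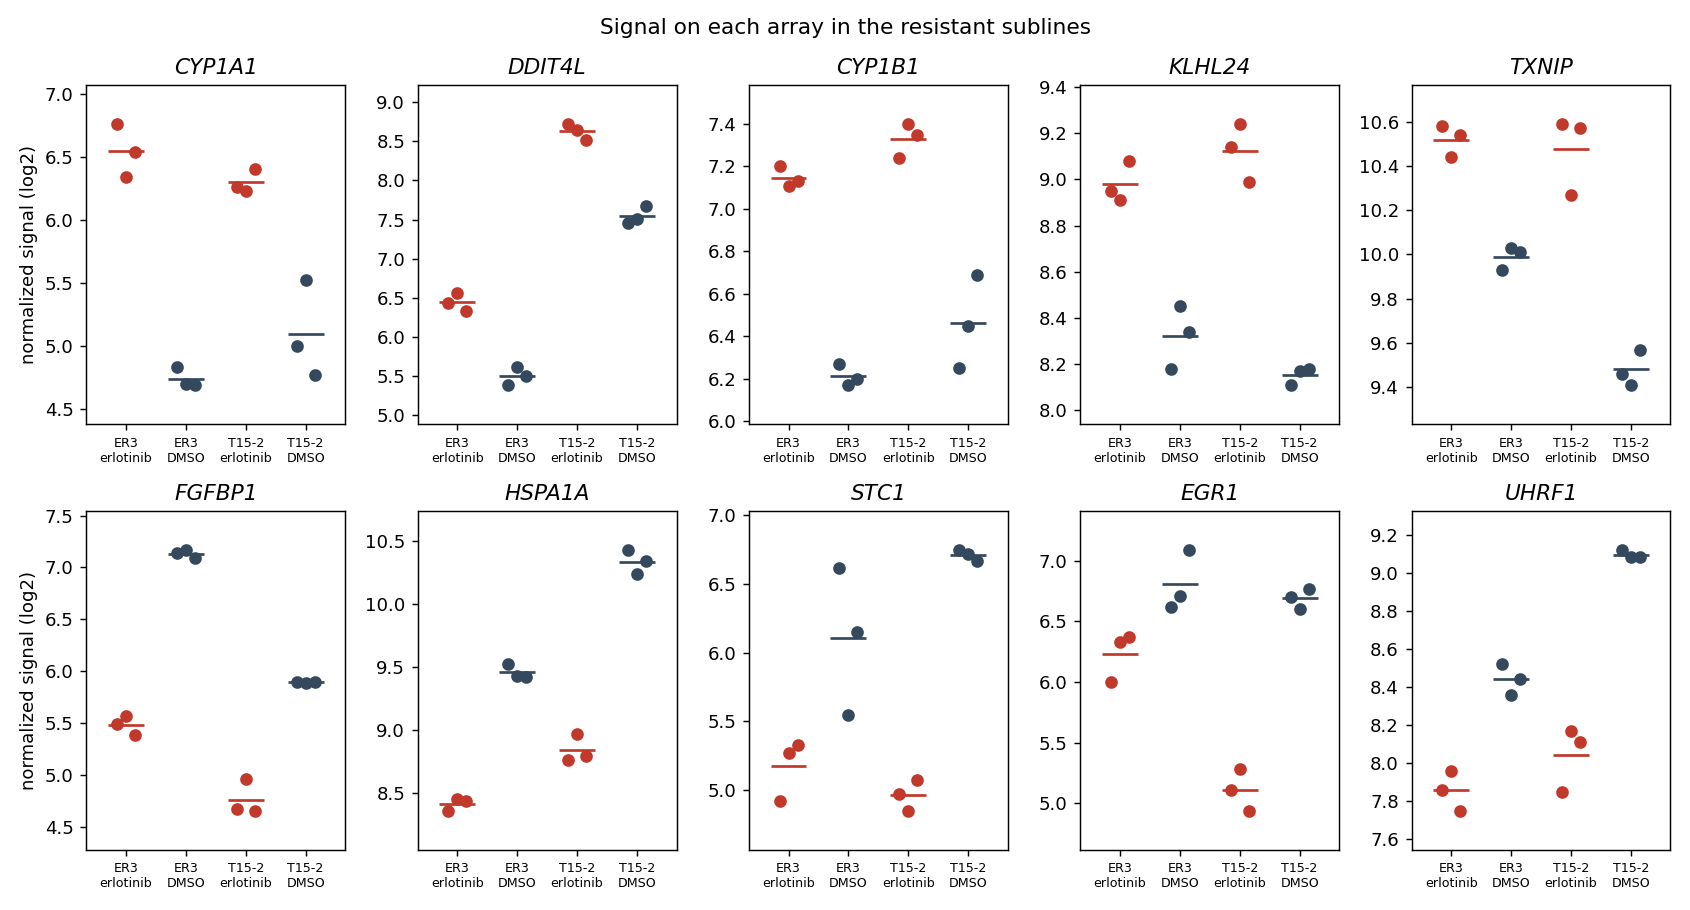
Normalized signal (log2, vertical axis) of 10 genes on each of the 12 arrays of the resistant sublines, in 4 columns per gene: ER3 with erlotinib, ER3 with DMSO, T15-2 with erlotinib and T15-2 with DMSO. Points are arrays and bars are means of 3 arrays; the vertical axes differ between genes and do not start at 0. In the top row (CYP1A1, DDIT4L, CYP1B1, KLHL24, TXNIP) every erlotinib array lies above the DMSO arrays of its own subline, and in the bottom row (FGFBP1, HSPA1A, STC1, EGR1, UHRF1) below them.

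Genes of xenobiotic-metabolising cytochromes were among the largest rises. CYP1A1, an enzyme induced by the aryl hydrocarbon receptor (AHR), had log2 signals of 6.76, 6.34 and 6.54 in ER3 with erlotinib, against 4.83, 4.70 and 4.69 in ER3 with DMSO. In T15-2 they were 6.26, 6.23 and 6.40 with erlotinib, against 5.00, 5.52 and 4.77 with DMSO. All 6 erlotinib arrays lay above all 6 DMSO arrays. CYP1A1 was not above background on any ER3 DMSO array and was at least 3.14-fold higher with erlotinib there. It was above background on 2 of 3 T15-2 DMSO arrays. On average it rose by 1.50 ± 0.13 (SE; adjusted p = 6.95e-06). CYP1B1, a related cytochrome, rose by 0.90 ± 0.08, and the AHR feedback gene TIPARP by 0.29 ± 0.07. The AHR list had 6 measured genes, and none fell. Another member, CYP1A2, was called higher, but it was not above background on any DMSO array of the sublines and entered the test only through 1 ER3 and 2 T15-2 erlotinib arrays. Its call was lost in most fits without 1 array, no fold is given for it, and the list's count is not read against all genes.

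DDIT4L, a relative of DDIT4 that restrains mTORC1, had the second-largest rise. Its log2 signals were 6.44, 6.56 and 6.33 with erlotinib in ER3, against 5.39, 5.62 and 5.51 with DMSO. T15-2 had 8.72, 8.64 and 8.52 with erlotinib, against 7.46, 7.51 and 7.68 with DMSO. The starting levels of the sublines differed, but the changes were close, at 0.94 ± 0.10 in ER3 and 1.08 ± 0.10 in T15-2 (average 1.01 ± 0.07, adjusted p = 1.07e-06). DDIT4 itself went the other way and fell by 0.50 on the log2 scale, with groups apart in both sublines. It lies outside the rule for named genes and was chosen after its values were seen. BCO1, which cleaves beta-carotene, rose by 0.88 ± 0.08, the actin-binding protein gene LIMA1 by 0.72 ± 0.08, and FLRT3, a membrane protein with fibronectin and leucine-rich repeats, by 0.67 ± 0.07.

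Many genes known as FOXO targets or as markers of quiescence rose. Of 31 measured members 19 rose and none fell, beside 6.86% of all genes tested that rose. This and the other lists were chosen with earlier results of these data known, so their counts are descriptions and not tests. Their median change was 0.37 on the log2 scale, beside a median of 0.01 for all genes tested. Changes were positive in both sublines for 27 of the 31. YPEL3, a small growth-suppressing protein, had log2 signals of 7.62, 7.98 and 8.11 with erlotinib in ER3, against 7.25, 7.21 and 7.17 with DMSO. The T15-2 signals were 7.21, 7.30 and 7.39 with erlotinib, against 6.51, 6.17 and 6.27 with DMSO, so that each subline's groups lay apart. YPEL3 rose by 0.84 ± 0.09 on average (adjusted p = 6.31e-05). KLHL24, a substrate adaptor of a ubiquitin ligase, rose by 0.82 ± 0.08 (adjusted p = 2.78e-05).

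TXNIP, which binds thioredoxin and restrains glucose uptake, had log2 signals of 10.58, 10.44 and 10.54 with erlotinib in ER3, against 9.93, 10.03 and 10.01 with DMSO. In T15-2 the signals were 10.59, 10.27 and 10.57 with erlotinib, against 9.46, 9.41 and 9.57 with DMSO. The erlotinib arrays of both sublines reached the same level, from a lower DMSO level in T15-2. TXNIP rose by 0.77 ± 0.09 on average (adjusted p = 0.000133), and PDK4, which inhibits pyruvate dehydrogenase, by 0.63 ± 0.10. Members that did not pass included CDKN1B, which encodes the cell cycle inhibitor p27, at 0.22 ± 0.08 (adjusted p = 0.0767), and BCL2L11, which encodes the pro-apoptotic BIM, at -0.08 ± 0.11 (adjusted p = 0.699). BMF, another pro-apoptotic gene of the BCL2 family and of the FOXO list, rose by 0.53 ± 0.11, although its ER3 groups overlapped. The pro-apoptotic BIK fell by 0.49 ± 0.07 on the log2 scale. Of 12 BCL2 family genes BMF and BIK were the only members that passed (16.7%, near the 12.7% of all genes called).

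The promoters of YPEL3 and TXNIP are shown because both rose in each subline and hold the core FOXO motif TGTTTAC, searched on both strands; capitals mark the match, which lies on the minus strand of the gene in both. The windows are RefSeq's for assembly GRCh38.p14, from 250 bases before to 50 after the start, at chr16:30096164-30096463 (minus strand) for YPEL3 and chr1:145996530-145996829 (minus strand) for TXNIP.
YPEL3: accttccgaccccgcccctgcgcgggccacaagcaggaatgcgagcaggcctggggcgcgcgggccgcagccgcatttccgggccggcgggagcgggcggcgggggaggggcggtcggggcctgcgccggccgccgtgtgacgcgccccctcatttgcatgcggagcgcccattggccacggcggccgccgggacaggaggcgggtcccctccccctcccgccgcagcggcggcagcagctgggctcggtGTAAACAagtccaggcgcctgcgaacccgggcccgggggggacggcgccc
TXNIP: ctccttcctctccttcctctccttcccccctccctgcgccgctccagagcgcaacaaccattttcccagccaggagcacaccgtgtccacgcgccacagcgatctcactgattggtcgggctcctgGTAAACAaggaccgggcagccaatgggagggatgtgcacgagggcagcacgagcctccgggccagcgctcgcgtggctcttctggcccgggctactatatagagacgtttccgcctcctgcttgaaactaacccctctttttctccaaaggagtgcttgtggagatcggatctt
The match starts at position 1 in YPEL3 and at position -124 in TXNIP, where position 1 is the base that follows the 250 bases before the start. On the FOXO list 6 of the 27 members with a promoter in the table held the motif. It was in 3.41% of all 27305 promoters, in 2.34% of those of the genes tested, in 5.56% of those of genes higher with erlotinib and in 0.916% of those of genes lower. The median GC content of the promoters was 64.7% for the genes tested, 64.7% for higher genes and 65.2% for lower genes.

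DNA replication and G1/S genes were the group with the largest share of lower genes among the lists. Of 38 measured members 28 fell and none rose, against 5.89% of all genes that fell, and the median change was -0.43. As with every list, members were chosen with earlier results of these data known, so the count is a description and not a test. RRM2, the inducible subunit of ribonucleotide reductase, had log2 signals of 6.72, 6.09 and 6.65 with erlotinib in ER3, against 7.32, 7.31 and 6.90 with DMSO. For T15-2 the values were 6.53, 6.77 and 6.70 with erlotinib, against 7.70, 7.72 and 7.58 with DMSO. The groups lay apart in each subline, and by a wider gap in T15-2. RRM2 fell by 0.85 ± 0.11 on the log2 scale on average (adjusted p = 0.000271), FEN1, the flap endonuclease that processes Okazaki fragments, by 0.84 ± 0.09, and MCM10, which acts in activation of the replicative helicase, by 0.73 ± 0.12.

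UHRF1, which binds hemimethylated DNA and recruits the maintenance methyltransferase, had log2 signals of 7.86, 7.96 and 7.75 with erlotinib in ER3, against 8.52, 8.36 and 8.44 with DMSO. In T15-2 they were 7.85, 8.17 and 8.11 with erlotinib, against 9.12, 9.08 and 9.08 with DMSO. UHRF1 fell by 0.82 ± 0.09 on the log2 scale (adjusted p = 7.37e-05), reaching a similar level with erlotinib in both sublines from a higher DMSO level in T15-2. Its other kept probe changed by -0.26 ± 0.10 and did not pass. The median change of the list was -0.28 in ER3 and -0.57 in T15-2. The T15-2 change lay below the ER3 change for all 38 members, as it did for 49.1% of all genes tested. It also did so for 29 of 33 ribosome biogenesis, 28 of 34 glycolysis and hypoxia, 20 of 24 heat shock and 21 of 26 MAPK genes. On the cholesterol list it did so for 8 of 27 and on the ER stress list for 5 of 19. Members of a list are not independent. No single member passed the test of a difference between sublines. On the mitosis and G2/M list 3 of 37 members rose and 3 fell, with a median of 0.05. These are 16.2% of the list, near the 12.7% of all genes called. The calls of MAD2L1 and HMMR were lost in most fits without 1 array. After median scaling 15 of the 38 replication genes fell and none rose.

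The promoters of UHRF1 and of PCNA, the replication clamp, are shown because both genes fell and hold an E2F motif. PCNA, outside the rule for named genes, was chosen after its values were seen and changed by -0.56 ± 0.09 (adjusted p = 0.00123). Its other kept probes changed by -0.60 ± 0.09, which passed, and by -0.22 ± 0.08, which did not. The motifs searched on both strands were TTTCCCGC and TTTGGCGC, and capitals mark the match, here TTTCCCGC read from the minus strand of the gene. The windows lie at chr19:4909251-4909550 (plus strand) for UHRF1 and chr20:5126573-5126872 (minus strand) for PCNA.
UHRF1: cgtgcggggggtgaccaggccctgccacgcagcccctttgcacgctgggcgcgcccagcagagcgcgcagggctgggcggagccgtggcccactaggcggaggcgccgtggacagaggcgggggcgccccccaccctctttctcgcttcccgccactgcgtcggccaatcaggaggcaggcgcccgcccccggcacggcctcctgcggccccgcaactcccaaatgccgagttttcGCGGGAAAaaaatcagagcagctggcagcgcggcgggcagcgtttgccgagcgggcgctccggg
PCNA: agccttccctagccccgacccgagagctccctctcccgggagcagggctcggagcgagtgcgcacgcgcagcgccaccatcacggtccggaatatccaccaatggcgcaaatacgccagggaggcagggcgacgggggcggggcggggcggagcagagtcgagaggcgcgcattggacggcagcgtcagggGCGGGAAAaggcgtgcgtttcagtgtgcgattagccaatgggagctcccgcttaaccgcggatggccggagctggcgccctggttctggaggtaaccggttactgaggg
The match starts at position -14 in UHRF1 and -59 in PCNA, counted from the RefSeq start. On the replication list 17 of the 35 members with a promoter held 1 of the motifs. They were in 2.31% of all promoters, in 3.72% of those of the genes tested, in 2.47% of those of higher genes and in 6.23% of those of lower genes. A match is a description of letters and not a bound site.

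**Figure D2:**
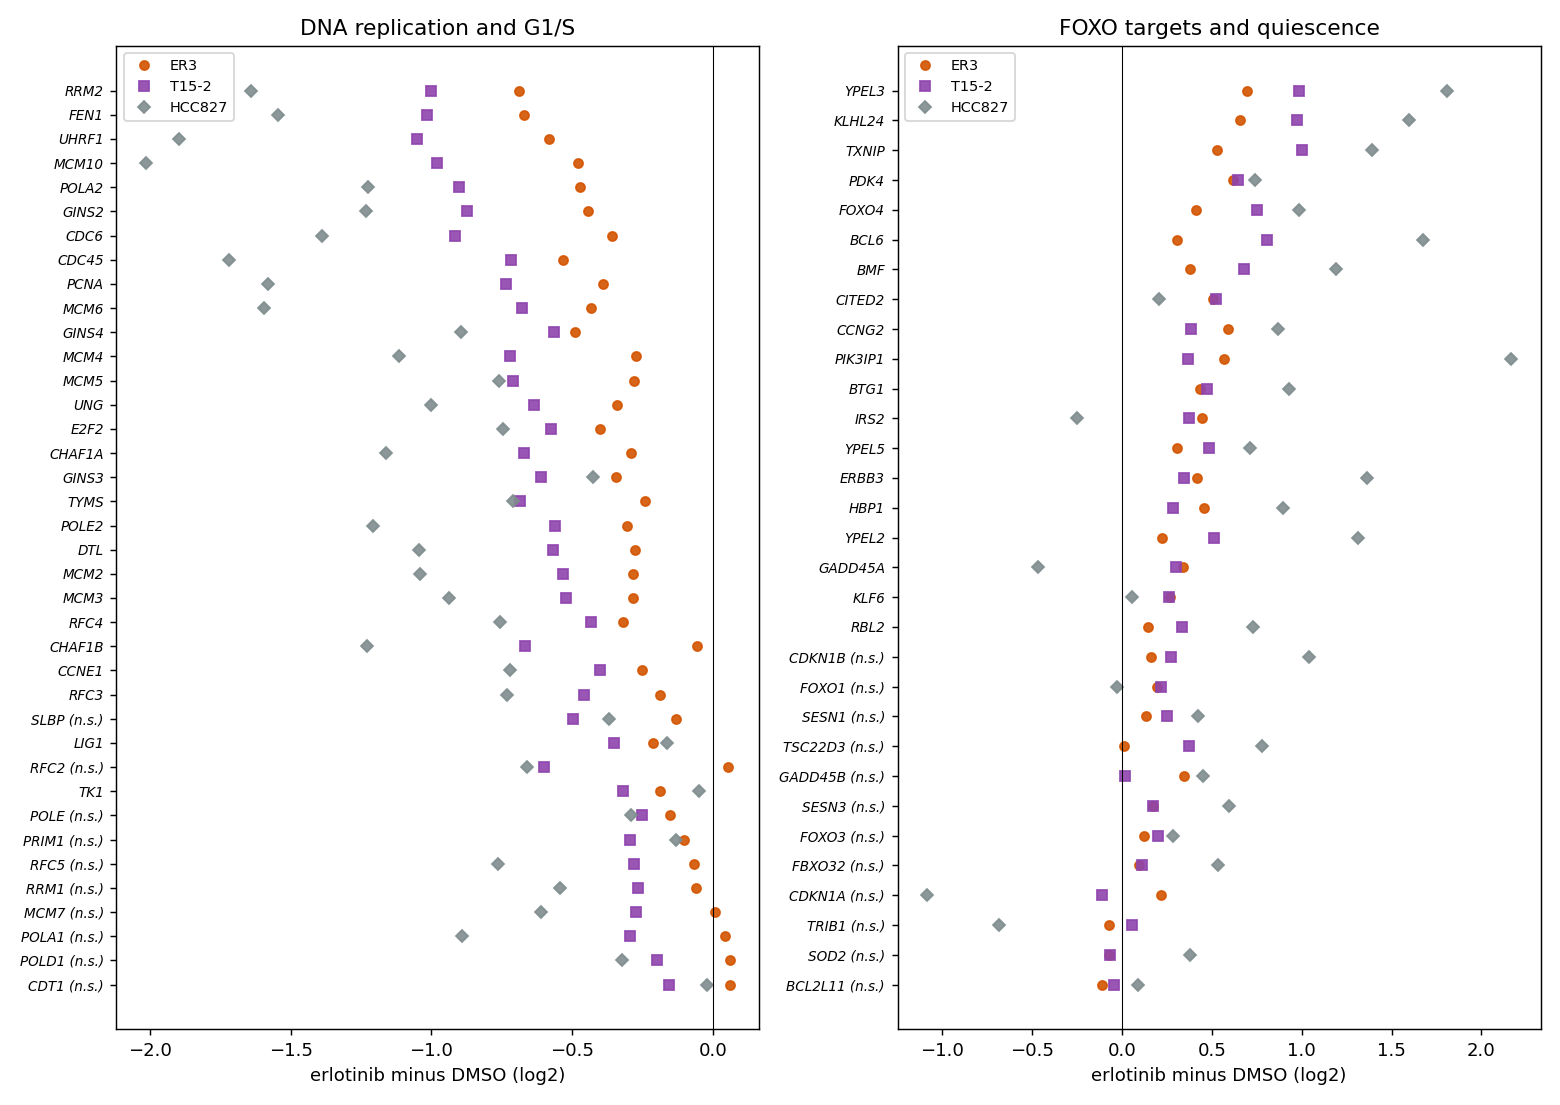
Change with erlotinib (erlotinib minus DMSO, log2, horizontal axis) of every measured member of the DNA replication and G1/S list (left) and of the FOXO and quiescence list (right), in ER3 (circles), T15-2 (squares) and HCC827 (diamonds). Each point is a difference of means of 3 arrays, and n.s. marks members that did not pass in the average of ER3 and T15-2. On the left all 38 squares lie below their circles; on the right 27 of 31 members lie above 0 in both sublines.

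FGFBP1, a secreted carrier of fibroblast growth factors, had the largest fall of all called genes. It was listed with other receptor kinases and ligands, not with MAPK output. Its log2 signals were 5.49, 5.57 and 5.39 with erlotinib in ER3, against 7.14, 7.17 and 7.09 with DMSO, and in T15-2 4.68, 4.96 and 4.66 with erlotinib, against 5.90, 5.89 and 5.90 with DMSO. Groups lay apart in both sublines, and 1 of 3 T15-2 erlotinib arrays was above background. FGFBP1 fell by 1.39 ± 0.09 on the log2 scale on average (adjusted p = 4.97e-07).

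Listed outputs of the ERK pathway changed less evenly than the replication genes. Of 26 measured genes of MAPK output and feedback, 7 fell and 2 rose, with a median change of -0.09. That is 34.6% called, beside 12.7% of all genes. EGR1, an immediate early transcription factor, had log2 signals of 6.00, 6.33 and 6.37 with erlotinib in ER3, against 6.62, 6.71 and 7.09 with DMSO. T15-2 had 5.11, 5.28 and 4.94 with erlotinib, against 6.70, 6.60 and 6.77 with DMSO. The T15-2 groups lay far apart, and the ER3 groups were separate by a small gap. EGR1 fell by 1.08 ± 0.16 on the log2 scale on average (adjusted p = 0.000554), FOSL1, an AP-1 component, by 0.65 ± 0.09, and PHLDA2, an imprinted growth regulator, by 0.64 ± 0.12. CCND1, which encodes cyclin D1, fell by 0.40 ± 0.07 (adjusted p = 0.00158), with all erlotinib arrays of a subline below its DMSO arrays.

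DUSP6, the phosphatase that inactivates ERK, did not pass. Its log2 signals were 8.12, 8.14 and 8.54 with erlotinib in ER3, against 7.89, 8.63 and 7.60 with DMSO, which overlap. The T15-2 signals were 7.37, 7.15 and 6.81 with erlotinib, against 7.74, 7.90 and 7.70 with DMSO, which do not. The average was -0.23 ± 0.18 (adjusted p = 0.448), with changes of 0.22 in ER3 and -0.68 in T15-2. ETV5, an ERK-induced transcription factor, changed by -0.13 ± 0.08 (adjusted p = 0.342) and MYC by 0.17 ± 0.08 (adjusted p = 0.149). Of 26 immediate early genes, 7 rose and 3 fell (38.5%, beside 12.7% of all genes called). DUSP1, a phosphatase of stress kinases and ERK, rose by 0.46 ± 0.07 and the RNA-binding protein gene ZFP36L1 by 0.47 ± 0.11, although the ER3 groups of ZFP36L1 overlapped. In a fit with the replicate number as a block the rises on that list numbered 4.

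Of 24 measured heat shock and chaperone genes 9 fell, none rose and 15 did not pass, beside 5.89% of all genes that fell. The inducible HSP70 genes had the largest falls. HSPA1A had log2 signals of 8.36, 8.45 and 8.44 with erlotinib in ER3, against 9.52, 9.43 and 9.42 with DMSO, and in T15-2 8.76, 8.97 and 8.79 with erlotinib, against 10.43, 10.24 and 10.34 with DMSO. The groups were separate in both sublines by far more than their spread. HSPA1A fell by 1.27 ± 0.09 on the log2 scale (adjusted p = 4.97e-07) and HSPA1B by 1.12 ± 0.12; these genes are near-identical, and their probes may not tell them apart. HSPE1, the mitochondrial co-chaperonin, fell by 0.55 ± 0.08, and DNAJA1, a co-chaperone of HSP70, by 0.48 ± 0.08. The median change of the list was -0.19, and after median scaling 5 members fell and 1 rose.

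The promoter of DNAJA1 is shown for its heat shock element, searched on both strands as GAA, TTC and GAA with any 2 bases between one and the next. Capitals mark the match, which starts at position 4, counted as for YPEL3. The window is chr9:33025023-33025322 (plus strand).
DNAJA1: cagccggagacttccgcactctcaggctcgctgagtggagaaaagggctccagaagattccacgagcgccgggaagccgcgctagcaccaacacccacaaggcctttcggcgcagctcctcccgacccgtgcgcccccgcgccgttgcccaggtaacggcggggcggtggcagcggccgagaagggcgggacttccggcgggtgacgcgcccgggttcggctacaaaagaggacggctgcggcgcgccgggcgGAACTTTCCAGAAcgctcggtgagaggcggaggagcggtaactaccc
On the heat shock list 4 of 22 promoters held this element, which was in 0.487% of all promoters and in 0.336% of those of the genes tested. The AHR core TTGCGTG was in none of the 5 promoters of the AHR list and in 1.15% of all promoters. The letters TGATGCAAT (ATF4) were in 1 of 26 promoters of the ATF4 list and in 0.264% of all, and the carbohydrate response element, CACGTG repeated after any 5 bases, was in none of the 11 promoters of the arrestin and glucose list and in 0.00732% of all.

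Of 19 measured genes of the endoplasmic reticulum (ER) stress response 7 fell, 1 rose and 11 did not pass. The share called was 42.1%, beside 12.7% of all genes. SDF2L1, part of an ER chaperone complex, had log2 signals of 8.68, 9.19 and 8.78 with erlotinib in ER3, against 9.65, 9.59 and 10.02 with DMSO. For T15-2 the values were 9.01, 8.97 and 9.23 with erlotinib, against 10.10, 10.02 and 10.01 with DMSO, with no overlap in either subline. It fell by 0.92 ± 0.10 on the log2 scale (adjusted p = 3.91e-05), and MANF, a secreted ER stress protein, by 0.70 ± 0.07. CRELD2, another ER stress protein, fell by 0.53 ± 0.07. The disulfide isomerase gene PDIA6 fell by 0.51 ± 0.10 with overlapping ER3 groups, a call lost after median scaling. The median change of the list was -0.14, and after median scaling 4 members fell and 3 rose.

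Of 34 genes of glycolysis and hypoxia 18 fell and none rose, beside 5.89% of all genes that fell. Their median change was -0.28. PFKFB4, which sets the level of the phosphofructokinase activator fructose-2,6-bisphosphate, had log2 signals of 7.94, 8.19 and 7.74 with erlotinib in ER3, against 9.07, 8.62 and 8.78 with DMSO. In T15-2 they were 7.78, 7.82 and 7.84 with erlotinib, against 9.19, 9.20 and 9.26 with DMSO. Neither subline's groups overlapped, and T15-2 varied little between arrays. PFKFB4 fell by 1.13 ± 0.11 on the log2 scale (adjusted p = 2.33e-05). STC1, which encodes the glycoprotein hormone stanniocalcin, fell by 1.34 ± 0.17, with ER3 DMSO arrays at 6.62, 5.55 and 6.15 that differed more than those of any T15-2 group. ENO2, an enolase, fell by 0.68 ± 0.08, and ANGPTL4, an inhibitor of lipoprotein lipase, by 0.93 ± 0.17, although its ER3 groups overlapped (6.25, 6.76 and 6.28 with erlotinib, against 7.09, 6.74 and 6.70 with DMSO). The other 16 members did not pass. After median scaling 8 fell and 1 rose.

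Of 27 genes of cholesterol and fatty acid synthesis 7 fell (25.9%) and none rose (median -0.14), beside 5.89% of all genes that fell. ELOVL6, a fatty acid elongase, fell by 0.53 ± 0.06 and HMGCS1, an early enzyme of the mevalonate pathway, by 0.45 ± 0.07. Of 33 ribosome biogenesis genes 7 fell (21.2%) and none rose (median -0.12), with POLR3G, a subunit of RNA polymerase III, at -0.45 ± 0.09. After median scaling 2 cholesterol genes and 1 ribosome biogenesis gene fell, so that these groups' counts rest on the normalization. Of 31 ATF4 targets and tRNA synthetases, 3 fell and 2 rose (median -0.02), against 12.7% of all genes called.

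Among 13 arrestin domain and glucose-sensing genes 3 rose and 5 fell (61.5%, beside 12.7% of all genes called). Besides DDIT4L and TXNIP, which rose, and PFKFB4, which fell, PFKFB3, the main inducible isoform of that enzyme, fell by 0.58 ± 0.09. Of 33 lysosome and autophagy genes 4 rose and 2 fell (median 0.06), which is 18.2% of the list, near the 12.7% of all genes called. ULK1, the kinase that starts autophagy, had log2 signals of 11.51, 11.48 and 11.34 with erlotinib in ER3, against 10.93, 10.94 and 11.01 with DMSO. T15-2 had 11.07, 10.97 and 10.98 with erlotinib, against 10.37, 10.46 and 10.49 with DMSO. Groups lay apart in both, and ULK1 rose by 0.52 ± 0.06 (adjusted p = 0.000132). ATG14, a subunit of the autophagy PI3 kinase, rose by 0.42 ± 0.07 and GABARAPL1, an ATG8 family protein, by 0.47 ± 0.11. Of 28 interferon-stimulated genes 6 rose and 2 fell (28.6%), with IRF9, a component of the interferon-activated transcription complex, at 0.40 ± 0.08.

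**Figure D3:**
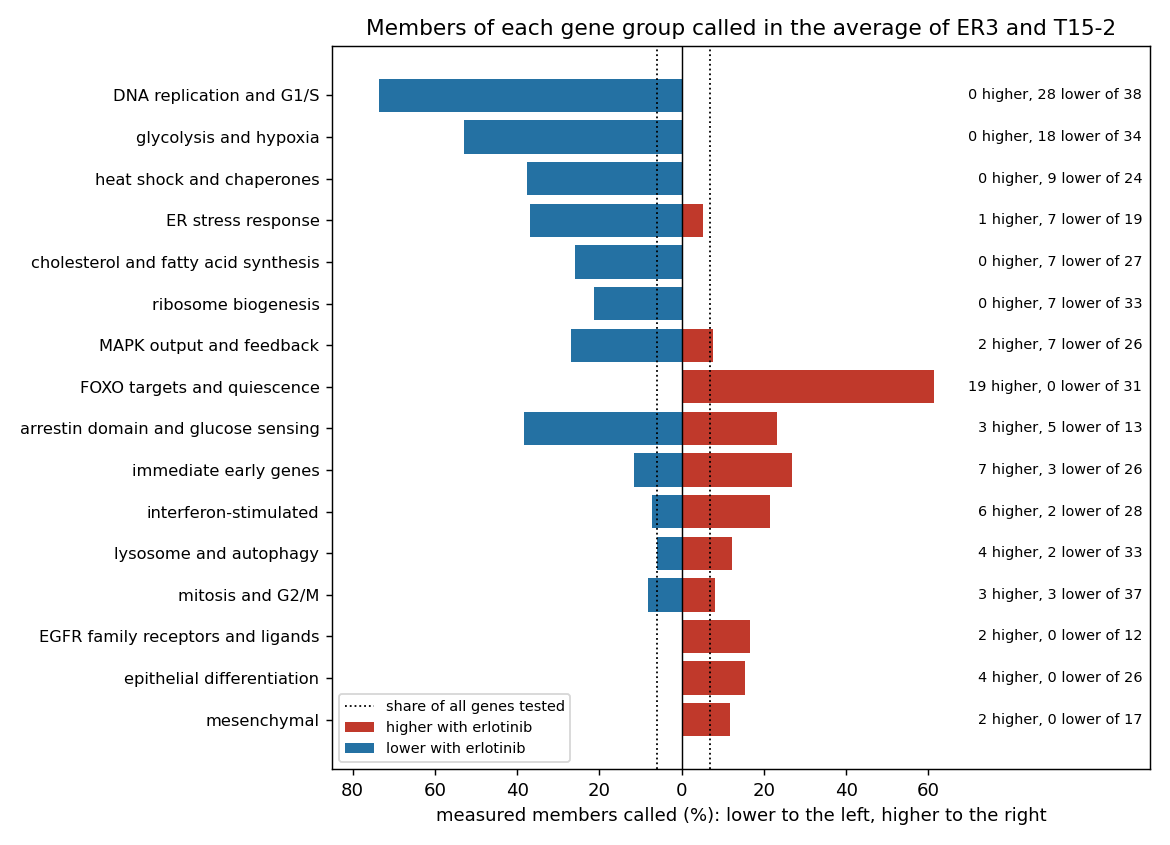
Share of the measured members of 16 gene groups that passed in the average of ER3 and T15-2 (horizontal axis, %), lower with erlotinib to the left and higher to the right, with counts at the right edge. Dotted lines mark the shares over all genes tested, 5.89% lower and 6.86% higher. DNA replication and G1/S has the longest bar to the left (28 of 38) and FOXO targets and quiescence the longest to the right (19 of 31).

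Among 12 measured EGFR family receptors and ligands HBEGF and ERBB3 rose and none fell, which is 16.7% of the list, near the 12.7% of all genes called. HBEGF, a ligand of EGFR, had log2 signals of 7.88, 7.86 and 7.96 with erlotinib in ER3, against 7.30, 7.21 and 7.10 with DMSO. The T15-2 signals were 7.83, 7.93 and 7.87 with erlotinib, against 7.36, 7.49 and 7.43 with DMSO. Every erlotinib array of the sublines lay above every DMSO array, and HBEGF rose by 0.57 ± 0.07 (adjusted p = 0.000138). ERBB3, the kinase-impaired partner receptor, rose by 0.38 ± 0.10 with overlapping ER3 groups, a call lost with the mean of its probes.

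EGFR changed by 0.25 ± 0.09 (adjusted p = 0.0661), ERBB2 by -0.01 ± 0.12 (adjusted p = 0.962) and AXL by 0.34 ± 0.13 (adjusted p = 0.101), none of which passed. EGFR passed in 10 of the 25 alternatives and AXL only after median scaling. MET was at 0.51 ± 0.16 (adjusted p = 0.0461), a call lost in 14 alternatives, most of them fits without 1 array. The erlotinib and DMSO arrays of MET overlapped in each subline. IRS2, an adaptor of insulin and IGF1 receptors, rose by 0.41 ± 0.07 (adjusted p = 0.00158).

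Some further lists are read here against the 12.7% of all genes called, and others are not described. Of 14 D cyclins and CDK inhibitors 4 rose and 2 fell (42.9% passed), among them CDKN1C, which encodes the inhibitor p57, at 0.44 ± 0.11, and RB1, the retinoblastoma protein gene, at 0.36 ± 0.09. Groups lay apart in both sublines for 1 of these rises and 1 of these falls, and CDKN1C and RB1 are not among them. CDKN2D was at -0.39, a call lost in most fits without 1 array and after median scaling. Of 14 p53 targets 2 rose and 2 fell (28.6%), with the stress-induced TP53INP1 at 0.59 ± 0.09 and TIGAR, a fructose-2,6-bisphosphatase, at -0.56 ± 0.09. Of 26 epithelial genes 4 rose and none fell (15.4%), with the tight junction gene CLDN1 at 0.47 ± 0.07, and of 17 mesenchymal genes 2 rose (11.8%), the matrix gene THBS1 at 0.41 ± 0.08 and the repressor gene SNAI2 at 0.40 ± 0.09. THBS1 had groups apart in both sublines, and SNAI2 did not. After median scaling the epithelial rises numbered 9 and the mesenchymal rises 5. Of 7 ABC transporters 4 rose and none fell (57.1%), with ABCA1, a cholesterol exporter, at 0.39 ± 0.08 and ABCC4, a drug and nucleotide exporter, at 0.33 ± 0.08. The calls of ABCB1 and ABCC3 on that list were lost in most fits without 1 array.

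Read in each subline alone, the response was called less often. In ER3 185 genes passed (1.63%), 101 higher (0.892%) and 84 lower (0.742%) with erlotinib. In T15-2 706 passed (6.24%), 367 higher (3.24%) and 339 lower (3%). Of the 1443 genes called on average, 102 passed in both sublines, 57 in ER3 alone, 486 in T15-2 alone and 798 (55.3%) in neither. No gene passed in both sublines in opposite directions. The change was larger in T15-2 for 939 of the 1443 and for 547 of the 840 stricter genes. Without the 2 arrays that stood apart, the counts were 538 in ER3 and 1084 in T15-2. Leaving out 1 array gave as few as 28 in ER3 (without ER3 DMSO replicate 1) and 235 in T15-2 (without T15-2 erlotinib replicate 2), and the replicate block gave 23 in ER3 and 209 in T15-2. ER3's count was 14 in a fit of its 6 arrays alone. Across all 11318 genes the changes of T15-2 and ER3 correlated at 0.53 (Pearson's r across genes, which are not independent and were normalized together).

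Tested directly, the difference of the T15-2 change minus the ER3 change passed for 0 genes in limma over 12 arrays, with a lowest adjusted p of 0.112; an unadjusted p below 0.05 was reached by 791 genes, 6.99%. Over all 18 arrays 4 genes passed. These were KRT16P2 (-1.29 in T15-2, -0.27 in ER3), TCP11L2 (0.28 in T15-2, 1.35 in ER3), PTGS2 (0.13 in T15-2, 1.02 in ER3) and ITGA2 (-0.45 in T15-2, 0.31 in ER3); apart from PTGS2 they lie outside the rule for named genes and were chosen after their values were seen. PTGS2 is the gene of cyclooxygenase-2, and its average rise was 0.58 ± 0.13. Its log2 signals were 9.18, 9.23 and 9.12 with erlotinib in T15-2, against 8.94, 9.10 and 9.08 with DMSO, and 10.71, 10.43 and 10.76 with erlotinib in ER3, against 9.48, 9.69 and 9.68 with DMSO.

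**Figure D4:**
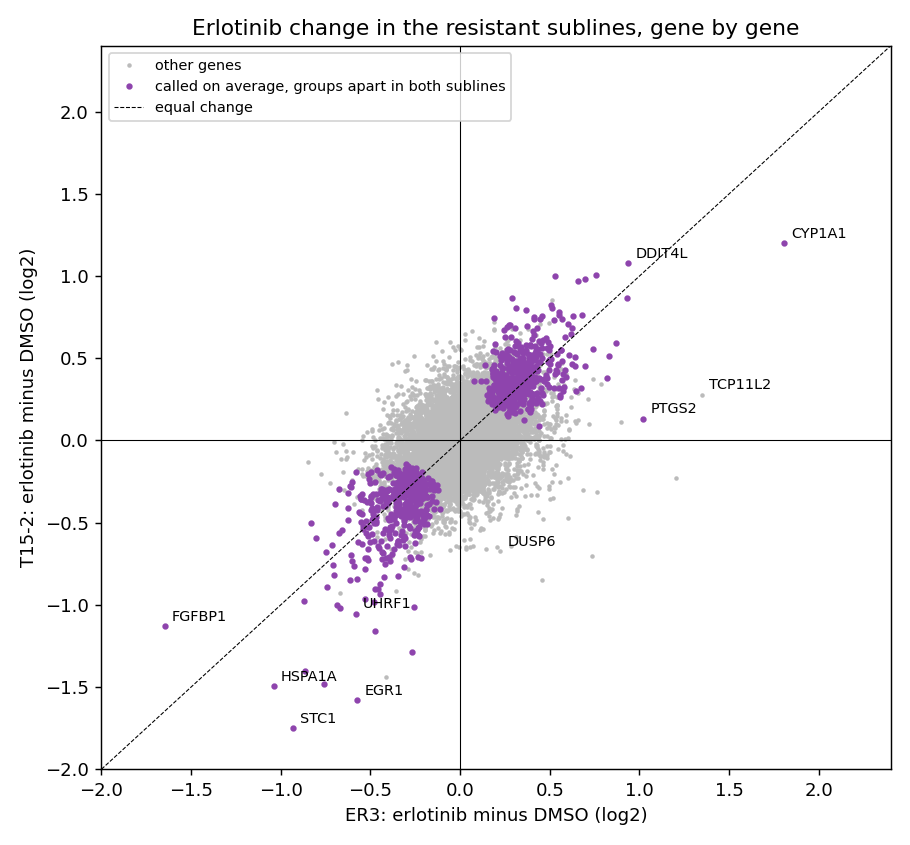
Change with erlotinib (erlotinib minus DMSO, log2) of all 11318 genes in ER3 (horizontal axis) and T15-2 (vertical axis), each a difference of means of 3 arrays. Purple points are the 840 genes that passed on average with groups apart in both sublines, grey points the other genes, and the dashed line is equal change. FGFBP1 and CYP1A1 lie on the ER3 side of the line, HSPA1A, STC1, EGR1 and UHRF1 on the T15-2 side.

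Set beside parental HCC827, most of the genes called in the sublines had a change of the same sign. In HCC827 4380 of the same genes passed (38.7%), 19.6% of genes tested higher and 19.1% lower. Of the 1443 genes called in the sublines, 1261 (87.4%) had the same sign in HCC827, 880 (61.0%) passed there in the same direction, 39 (2.70%) in the opposite direction and 524 did not pass. The 880 are 20.1% of the genes called in HCC827. Of the 1261, 807 had a smaller change in the sublines. The difference itself, the average change of the sublines minus that of HCC827, passed for 526 of the 1443 genes, beside 23.8% of all genes; in 380 of them the subline change had the same sign and was smaller, in 12 the same sign and larger, and in 134 the opposite sign.

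For FGFBP1 and for outputs of ERK the difference was large. FGFBP1 fell by 1.39 on the log2 scale in the sublines and by 4.59 in HCC827, a difference of 3.20 ± 0.13. Its mean DMSO signal was 7.1 in ER3, 5.9 in T15-2 and 9.6 in HCC827. With erlotinib it was above background on 1 of 3 T15-2 arrays and 2 of 3 HCC827 arrays. CCND1 changed by -0.40 in the sublines and -3.18 in HCC827 (difference 2.78 ± 0.10), and EGR1 by -1.08 and -3.60 (difference 2.52 ± 0.17). The mean DMSO signal of EGR1 was 6.8 in ER3, 6.7 in T15-2 and 8.3 in HCC827, where 1 of 3 erlotinib arrays was above background. The part of lower starting levels and of the background floor in these differences was not tested. DUSP6 was at -0.23 in the sublines and -4.08 in HCC827, where no erlotinib array was above background, and ETV5 at -0.13 and -4.31. On the MAPK list 21 of 26 genes fell in HCC827 and the difference was called positive for 22, beside 19.1% and 12.7% of all genes.

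Values of the other groups lay beside those of the parent as follows. On the FOXO list the median change was 0.37 in the sublines and 0.73 in HCC827. The difference was called for 21 of its 31 genes, beside 23.8% of all genes tested. PDK4 had 0.63 in the sublines and 0.74 in HCC827 (difference -0.11 ± 0.18, adjusted p = 0.704). On the glycolysis and hypoxia list the medians were -0.28 in the sublines and -0.41 in HCC827. The difference was called for 10 of its 34 genes, again beside 23.8% of all genes. PFKFB4 had -1.13 in the sublines and -0.99 in HCC827 (difference -0.14 ± 0.16, adjusted p = 0.542), and STC1 -1.34 and -0.86 (difference -0.48 ± 0.24, adjusted p = 0.152), with no HCC827 erlotinib array above background. SDF2L1 had -0.92 in the sublines and -1.23 in HCC827 (difference 0.31 ± 0.15, adjusted p = 0.152). A difference that missed the threshold does not show equal responses.

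Some genes rose with erlotinib in the sublines and fell in HCC827. Of the 39 genes called in opposite directions 33 were higher in the sublines and 6 lower. The difference passed for all 39, which their selection by opposite calls largely fixes, so it adds no separate support. PTGS2 changed by 0.58 in the sublines on average and by -2.40 in HCC827. The subline average came mainly from ER3, with 1.02 in ER3 and 0.13 in T15-2, where PTGS2 did not pass alone. Its other kept probe rose by 0.61 ± 0.15 on average and passed, but its groups were not apart in both sublines. SGPP2, a sphingosine phosphate phosphatase, had log2 signals of 8.85, 8.67 and 8.67 with erlotinib in ER3 against 8.44, 8.47 and 8.22 with DMSO, and 8.27, 8.01 and 7.88 with erlotinib in T15-2 against 7.59, 7.78 and 7.61 with DMSO. In HCC827 they were 6.59, 6.45 and 6.36 with erlotinib against 8.90, 8.80 and 8.68 with DMSO. SGPP2 thus lay higher with erlotinib in each subline and lower in the parent, with no overlap of groups in any line (0.37 ± 0.08 in the sublines, -2.33 ± 0.11 in HCC827). SGPP2 was chosen after its values were seen.

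CLDN1 had 0.47 ± 0.07 in the sublines and -0.33 ± 0.09 in HCC827, CCN2, a YAP target and matricellular protein, 0.38 ± 0.09 and -1.44 ± 0.13, and GADD45A, a growth arrest gene, 0.32 ± 0.08 and -0.46 ± 0.10. The groups of CCN2 were not apart in both sublines. The other kept GADD45A probe changed by 0.09 ± 0.07 in the sublines and did not pass. HBEGF rose by 0.57 in the sublines and had -0.19 ± 0.09 in HCC827, where it did not pass; the difference was 0.76 ± 0.11 (adjusted p = 4.86e-05). IRS2 rose by 0.41 in the sublines, against -0.25 ± 0.11 in HCC827 (difference 0.65 ± 0.13, adjusted p = 0.00136).

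**Figure D5:**
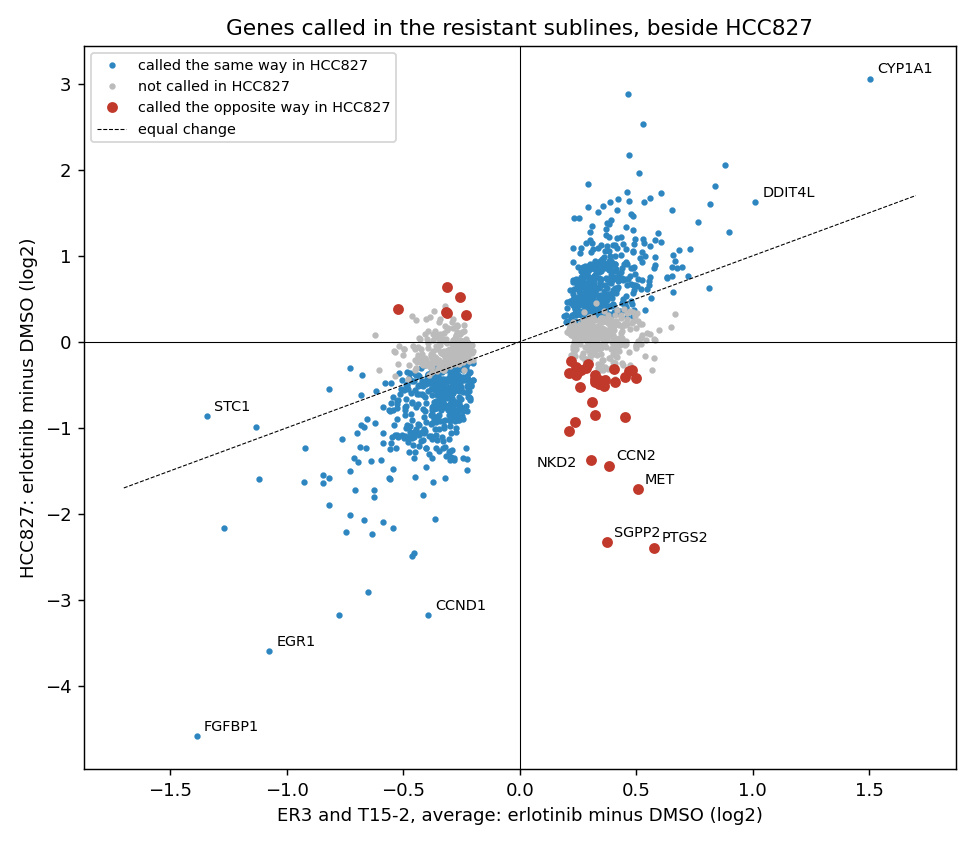
Change with erlotinib (log2) of the 1443 genes called on average in ER3 and T15-2, with the average of the sublines on the horizontal axis and HCC827 on the vertical axis, whose scale is wider. Blue points are the 880 genes called the same way in HCC827, grey points the 524 not called there, red points the 39 called the opposite way, and the dashed line is equal change. PTGS2, SGPP2, MET, CCN2 and NKD2 are the labelled red points, higher on average in the sublines and lower in HCC827. MET and CCN2 did not have groups apart in both sublines.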

How the data were processed

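Illumina BeadChips measured biotin-labelled RNA of 18 samples. The deposited signal table holds a linear intensity and a detection p-value per probe, without background subtraction as its values show, and a second deposited table holds the authors' normalized intensity values, used as an alternative. BeadStudio is named per the submitters' processing notes, with no version in the sources used here. Groups and replicate numbers came from the labels.

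Intensities of all 18 arrays were corrected and quantile-normalized with neqc (limma 3.58.1, R 4.3.3, offset 16) and set on a log2 scale by this processing, not by the authors. The filter kept 18690 probes, those detected (p under 0.05) on 3 or more of the 12 subline arrays, of which 15024 had 1 gene symbol and 3666 had several or none. Symbols came from the platform annotation, updated through RefSeq (28054 identifiers matched), and the brightest probe stood for its gene. The average effect came from limma with line and treatment terms (9 residual degrees of freedom), subline effects and their difference from 4 group means on 12 arrays, and the comparison with HCC827 from 6 group means on 18 arrays. P-values were adjusted by Benjamini-Hochberg over 11318 genes at a threshold of 0.05, and ± is the SE of that fit. A fold against a group with no array above background is a bound against the lowest detected signal. A bounded or dim gene's fitted change may understate its difference.

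The members and gene lists were chosen with earlier results of these data known. Named genes were the 12 largest rises and 12 largest falls with groups apart in both sublines, up to 4 members per list by size of change, the largest called differences between sublines, and 24 fixed genes. On simulated arrays 100% of genes changed 2-fold were recovered, 94% at 1.5-fold and 50% at 1.25-fold, and 6.01% of calls were false. The simulated noise was independent between genes and arrays, and a small set of genes got the same change in both sublines. On the real arrays component 1 held 31.4% of the spread within groups. The simulated rates are therefore not error rates of the calls reported here. Samples with the same replicate number did not deviate together: 0 of 6 pairs correlated above 0.1 (range -0.41 to 0.08).

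The alternatives were other background correction, scaling, filters, probe summaries and model settings, a 2-fold minimum, the replicate block and the removal of single arrays. Leaving out both T15-2 erlotinib replicate 3 and ER3 DMSO replicate 2 was chosen after seeing the data. A block for the BeadChip could not be fitted, as the sources used here do not name each array's chip.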

Additional observations from a re-analysis of the deposited data

Results flagged for a closer look

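The following genes changed in opposite directions in the sublines and in HCC827, and the test of the difference itself passed for each. That outcome was largely fixed by choosing genes called in opposite directions. The average change of ER3 and T15-2 minus that of HCC827, on the log2 scale, was 2.97 for PTGS2, 2.70 for SGPP2, 2.22 for MET and 1.82 for CCN2. It was 1.68 for NKD2, a Wnt pathway inhibitor, 1.25 for STC2, 1.18 for the phosphatase gene PTPRE, 0.80 for RGL1, 0.80 for CLDN1 and 0.78 for GADD45A. TRIM45 (-0.96) and RIMKLA (-0.90) went the other way, lower in the sublines and higher in HCC827. NKD2, STC2, PTPRE, RGL1, TRIM45 and RIMKLA were chosen after their values were seen. The subline calls of MET and STC2 were lost in many fits without 1 array.

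Over 18 arrays 4 genes had a change that differed between T15-2 and ER3, which 0 genes did over 12 arrays.

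Of the probes with no single gene symbol, which enter none of the gene counts, 199 passed on average (5.43% of those kept), 97 higher and 102 lower with erlotinib.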

How the results depend on the processing

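Counts of genes that passed moved with the settings as follows. Without background correction and with the authors' values, 298 genes passed in ER3 and 2 differed between sublines. In ER3 302 passed with stricter detection, 325 with a trended robust fit (2 for the subline difference), 460 in the fit over 18 arrays (4 for the difference) and 14 with its arrays fitted alone. Median scaling left 338 in T15-2. A 2-fold minimum left 5 in ER3, 17 in T15-2, 8 on average, 8 with groups apart in both and 218 for the sublines minus HCC827. Without the 2 arrays that stood apart, the counts were 538 in ER3, 1084 in T15-2, 2322 on average (1290 of them among the 1443), 1909 with groups apart in both and 2 for the subline difference. With the replicate number as a block, 23 passed in ER3, 209 in T15-2 and 830 on average; the numbers did not pair the samples. The causes were not tested.

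Leaving out 1 array gave 895 to 1695 genes on average, 700 to 1135 with groups apart in both sublines, 28 to 242 in ER3, 235 to 801 in T15-2, 0 to 2 for the subline difference and 2334 to 3183 for the sublines minus HCC827. The average count was lowest without T15-2 erlotinib replicate 1 (895), T15-2 erlotinib replicate 2 (898) or T15-2 DMSO replicate 1 (913). No named gene that passed changed sign in the alternatives run, while BCL2L11, ERBB2 and ETV5, which did not pass, took both signs. In T15-2 the split of 367 higher and 339 lower turned to 435 and 442 without background correction, 435 and 443 with the authors' values, 357 and 375 with the mean of a gene's probes, 352 and 372 with its arrays fitted alone, 88 and 121 with the replicate block, and 4 and 13 at 2-fold; on average it turned to 2 and 6 at 2-fold. The splits of ER3 and T15-2 also turned in some fits without 1 array. Probes near background, such as CYP1A1 with DMSO and FGFBP1 with erlotinib in T15-2, limit the precision of the largest changes.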
